A study of Mus musculus with 23 samples.

Results

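The RNA of mouse sciatic nerve was searched for 9 genes that define T and B lymphocytes. They were the CD3 chains Cd3d, Cd3e and Cd3g, the coreceptors Cd4, Cd8a and Cd8b1, and the B cell genes Cd79a, Cd79b and Ms4a1. They were taken by symbol. All 9 were present among the 43068 genes listed in the crush experiment and among the 22880 listed in the gene deletion experiment.

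The crush experiment held 11 libraries from wild-type males of the C57bl6 background (C57BL/6J in the study's methods), with crush surgery at 2 months of age. There were 4 of crushed nerve taken 3 days post crush (dpc), 4 of the intact contralateral nerve of crushed animals, and 3 of uncrushed nerve, labelled as surgery controls. Which crushed and contralateral libraries share an animal is not stated, and the fits treat them as independent. The deletion experiment held 12 libraries, 3 in each of 4 groups, from animals of either sex, 3 months after tamoxifen. Mutants (iKO) carried homozygous floxed Dicer1 or Dgcr8 and the P0-CreERT2 transgene, which makes a tamoxifen-activated Cre in Schwann cells. Controls carried the same floxed alleles without the transgene, and mutants and controls alike received tamoxifen on 5 consecutive days at 8 to 10 weeks of age. Both floxed genes are needed to make microRNAs. Mutant nerves had been preselected for an affected morphology, which limits what they represent.

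T lymphocytes carry an antigen receptor whose signal passes through the CD3 chains. CD4 and CD8 mark the helper and cytotoxic subsets, and in T cells each binds one class of major histocompatibility molecule. B lymphocytes signal through CD79a and CD79b and display CD20, the product of Ms4a1. Intact peripheral nerve holds few lymphocytes beside its resident macrophages, and lymphocytes enter injured or inflamed nerve after myeloid cells. Cd4 is also transcribed by some myeloid cells in rodents, so in whole tissue it marks a lineage less strictly than the CD3 chains.

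Libraries held 6617716 to 12806066 assigned read counts in the crush experiment and 5594859 to 10143244 in the deletion experiment. A level of 3 counts, used here as the counting limit, therefore equalled 0.234 to 0.453 CPM in the first and 0.296 to 0.536 CPM in the second, where CPM is the count per 1e6 assigned counts. These limits are given before scaling. The CPM values below, and the limits drawn in the figures, were scaled within each experiment by the trimmed mean of M-values (TMM). The libraries carried no stated molecular identifiers and 1 molecule may give several reads, so intervals and limits cover counting error only. The 2 experiments were made with different library kits and were not compared with each other. In these whole-nerve libraries fewer cells of a type and less RNA per cell cannot be told apart.

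The 9 genes of the Schwann cell and nerve list were above 0 in every library. Their summed level was 36490 to 41820 CPM in uncrushed and 2116 to 3235 CPM in crushed nerve. Of the targeted genes, Dicer1 stood at 81.0 to 82.8 CPM in Dicer iKO and at 88.0 to 91.0 in its controls, lower in all 3 mutant libraries without passing the test (log2 fold change -0.11, SE 0.08, adjusted p = 0.36). Dgcr8 stood at 39.3 to 53.7 CPM in Dgcr8 iKO against 34.9 to 41.9 (0.22, SE 0.14, adjusted p = 0.23). Counts over a whole gene do not test the loss of the floxed part, and other cells of the nerve keep it. By PCR the study reported less mRNA of the targeted gene in each mutant, and less of an abundant microRNA in both.

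The 3 CD3 genes lie side by side on chromosome 9 (GRCm38). Cd3g (chr9:44969572-44980431, minus strand) and Cd3d (chr9:44981786-44987339, plus strand) start 1355 bases apart and point away from each other. Cd3e (chr9:44998740-45009627, minus strand) overlaps the antisense gene Gm48719. Cd4 is at chr6:124864692-124888221, Cd8a at chr6:71373427-71379173 and Cd8b1 at chr6:71322788-71337494. Cd79a is at chr7:24897381-24902197, Cd79b at chr11:106311341-106314762 and Ms4a1, which overlaps the antisense gene 4930526L06Rik, at chr19:11249675-11266241. RefSeq promoter windows of 300 bases (250 before and 50 after the gene start, GRCm38.p6) were at hand for 5 of the 9 members. The 4 of T cell genes are shown because each of these genes was higher in Dgcr8 iKO nerves when no filter on low counts was applied. Capitals mark each E box, CANNTG, a letter pattern read by the E protein family of lymphocyte factors.
Cd3d: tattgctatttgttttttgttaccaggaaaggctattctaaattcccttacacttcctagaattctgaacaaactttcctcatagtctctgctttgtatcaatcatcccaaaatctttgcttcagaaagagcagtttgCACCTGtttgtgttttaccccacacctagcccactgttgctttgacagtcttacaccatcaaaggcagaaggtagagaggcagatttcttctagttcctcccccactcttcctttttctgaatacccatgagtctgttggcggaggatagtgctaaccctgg
Cd3e: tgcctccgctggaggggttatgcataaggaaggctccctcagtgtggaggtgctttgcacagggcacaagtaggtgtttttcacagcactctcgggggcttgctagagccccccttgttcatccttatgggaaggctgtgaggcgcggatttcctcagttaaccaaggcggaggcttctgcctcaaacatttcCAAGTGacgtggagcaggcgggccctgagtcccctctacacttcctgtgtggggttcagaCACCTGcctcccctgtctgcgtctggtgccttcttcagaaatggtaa
Cd3g: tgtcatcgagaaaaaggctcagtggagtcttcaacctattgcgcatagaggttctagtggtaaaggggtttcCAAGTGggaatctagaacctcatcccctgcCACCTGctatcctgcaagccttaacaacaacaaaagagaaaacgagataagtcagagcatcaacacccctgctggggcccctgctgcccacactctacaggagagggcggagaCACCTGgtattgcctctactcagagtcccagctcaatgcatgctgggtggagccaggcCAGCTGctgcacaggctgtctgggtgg
Cd8a: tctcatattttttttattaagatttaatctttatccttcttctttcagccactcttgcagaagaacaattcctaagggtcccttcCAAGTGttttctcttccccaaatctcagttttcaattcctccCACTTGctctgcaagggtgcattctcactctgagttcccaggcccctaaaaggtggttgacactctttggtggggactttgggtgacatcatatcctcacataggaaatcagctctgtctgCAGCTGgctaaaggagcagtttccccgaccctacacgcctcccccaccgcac
The windows are chr9:44981536-44981835 for Cd3d, chr9:45009562-45009861 for Cd3e, chr9:44980382-44980681 for Cd3g and chr6:71373177-71373476 for Cd8a, each written 5′ to 3′ on the gene's own strand. They held 1, 2, 4 and 3 E boxes in that order, and the Cd79a window held 2. The same pattern, which reads alike on both strands, occurred in 72.3% of all 32851 promoter windows. The ETS core GGAAG or its complement CTTCC was found 2, 3, 0 and 2 times, against 71.4% of all windows with at least 1 match. On either strand the RUNX pattern TGTGGT, present in 16.8% of all windows, was not found in any of the 5. The same held for the TATA box letters TATAAA, present in 13.6% of all windows. A match is a run of letters and not a measured binding site.

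In mutant nerves preselected for an affected morphology, deletion of either microRNA processing gene was followed by a large rise of Cd4. The control nerves held next to none of the 9 genes. Across the 27 member values of each group, 5 exceeded 3 counts in Dicer control and 2 in Dgcr8 control. In Dicer iKO 9 of 27 did and in Dgcr8 iKO 20 of 27. Cd3g and Cd8a also rose in Dgcr8 iKO, while the B cell genes were near the counting limit or did not pass the test.

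**Figure D1:**
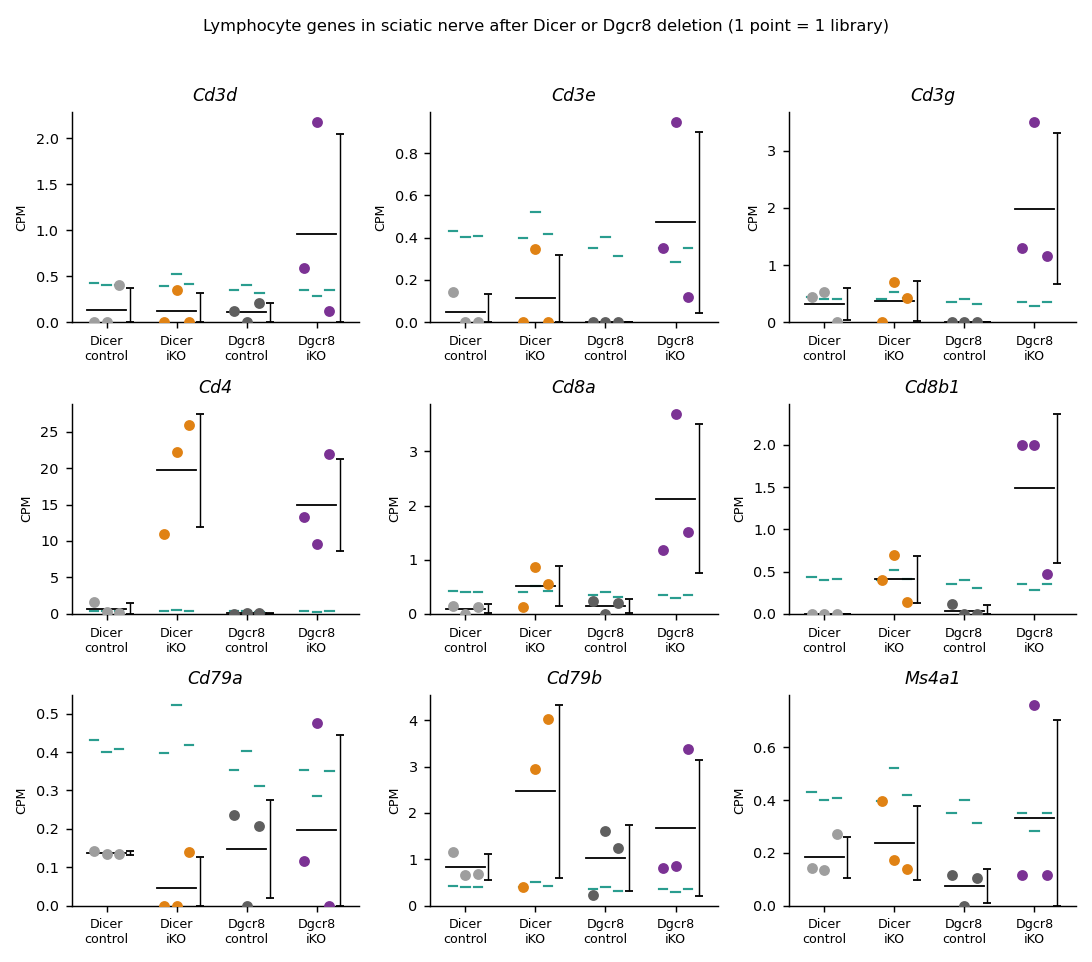
TMM-scaled CPM (y axis, linear, a scale of its own in each panel) of the 9 lymphocyte genes in the 12 libraries of the deletion experiment, by group (x axis). Each point is 1 library, the black line the group mean, the bar beside it 1 SD cut at 0, and the green dashes the level of 3 counts in each library. Cd4 lies at 9.58 to 25.9 CPM in the 6 mutant libraries and at 0 to 1.58 in the 6 controls.

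Cd4, the helper T cell coreceptor, had 113, 101 and 188 counts in the 3 Dgcr8 iKO libraries and 0, 1 and 1 in their controls. In Dicer iKO it had 83, 128 and 186 counts against 11, 2 and 1. Neither pair of groups overlapped. In CPM this was 14.9 ± 6.32 (SD, n = 3) in Dgcr8 iKO against 0.0793 ± 0.0703, and 19.7 ± 7.76 in Dicer iKO against 0.661 ± 0.798. The fitted log2 fold change was 7.33 in Dgcr8 iKO (SE 0.58, adjusted p = 6.01e-06, edgeR's quasi-likelihood test) and 4.89 in Dicer iKO (SE 0.63, adjusted p = 0.00369). Since the Dgcr8 control libraries held 2 Cd4 counts in all, the ratio of summed counts, 186, had an exact 95% interval of 51.2 to 1540 for counting error alone. The Dgcr8 and Dicer effects on Cd4 were compared directly and their difference was 2.41 on the log2 scale (SE 1.35, adjusted p = 0.46).

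All Cd4 counts of the deletion experiment, 402 in Dgcr8 iKO and 397 in Dicer iKO among them, were assigned to the protein-coding transcript Cd4-201, the 1 Cd4 transcript listed in those libraries, so this says nothing of isoforms. Calls across all genes set the scale for these counts. Of 13252 genes tested in the Dgcr8 comparison 13.4% were called higher and 6.99% lower, and of 13045 in the Dicer comparison 7.37% higher and 1.64% lower, at a fold change of at least 2 and an adjusted p of at most 0.05. Of the 9 members, 4 passed the filter on low counts in the Dgcr8 comparison and 3 of these were called higher. In the Dicer comparison Cd4 alone passed it and was called. A member passed the filter through the group where it was high, so these shares say nothing of the others.

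Cd3g, the gamma chain of the receptor complex, was called higher in Dgcr8 iKO. It had 11, 37 and 10 counts there and none in the 3 controls. Set against 3 counts in each control library, the mean of 1.99 ± 1.32 CPM was at least 5.6-fold higher (fitted log2 value 7.18, SE 1.25, adjusted p = 0.00146, edgeR, which depends on the prior count). Cd3d, the delta chain, had 5, 23 and 1 counts against 1, 0 and 2, so the groups overlapped. Cd3e, the epsilon chain, had 3, 10 and 1 counts against 0 in every control library. Neither Cd3d nor Cd3e passed the filter on low counts.

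Cd8a, the alpha chain shared by both forms of CD8, was also called higher in Dgcr8 iKO. Its counts were 10, 39 and 13 against 2, 0 and 2, or 2.13 ± 1.37 CPM against 0.148 ± 0.129 (log2 fold change 3.69, SE 0.76, adjusted p = 0.00238, edgeR). Of its 62 counts in Dgcr8 iKO, 49 (79%) were assigned to transcript Cd8a-201 and 13 to Cd8a-202. No library held both, since replicates 1 and 2 had all their counts (10 and 39) on Cd8a-201 and replicate 3 all 13 on Cd8a-202. In each of the other 6 groups every Cd8a count was assigned to Cd8a-202. A difference in transcript use was not tested. Cd8b1, the beta chain carried by conventional cytotoxic T cells, had 17, 21 and 4 counts against 1, 0 and 0. The groups did not overlap, but Cd8b1 too fell below the filter.

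When the filter was lifted and 18321 genes entered the Dgcr8 fit, 10.9% of them were called higher. All 6 T cell members were then called. Beside Cd3g, Cd4 and Cd8a, and with fitted values that depend on the prior count, these were Cd8b1 (log2 fold change 4.82, adjusted p = 0.000575, edgeR), Cd3e (5.16, adjusted p = 0.022) and Cd3d (2.95, adjusted p = 0.0282). The control counts behind the last 3 were 1, 0 and 3. Replicate 2 of Dgcr8 iKO held 23 of the 29 mutant counts of Cd3d and 10 of the 14 of Cd3e. The fit without the filter was not repeated without that library. The ratio of summed counts was 38.9 for Cd8b1 (exact 95% interval 6.61 to 1570) and 8.95 for Cd3d (2.78 to 45.9). For Cd3e the mutant mean was 1.33-fold the level of 3 counts per control library, with replicates 1 and 3 of the mutant at 3 and 1 counts.

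In Dicer iKO the CD3 chains and CD8 genes had at most 5 counts in any library and none passed the filter. Cd3d had 0, 2 and 0 counts against 0, 0 and 3 in the controls, Cd3e 0, 2 and 0 against 1, 0 and 0, and Cd3g 0, 4 and 3 against 3, 4 and 0. Cd8a had 1, 5 and 4 counts against 1, 0 and 1, and Cd8b1 3, 4 and 1 against none. Without the filter on counts Cd8a differed by 2.24 on the log2 scale (adjusted p = 0.23) and Cd8b1 by 4.55 (adjusted p = 0.11), neither of which passed. The ratio of summed counts for Cd3g was 1.07 with an exact 95% interval of 0.319 to 3.56 for counting error alone. That interval leaves out the spread between libraries. For none of these 5 genes was the difference between the Dgcr8 and the Dicer effect called when fitted without the filter, the lowest adjusted p being 0.17 for Cd3g (difference 6.89).

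**Figure D2:**
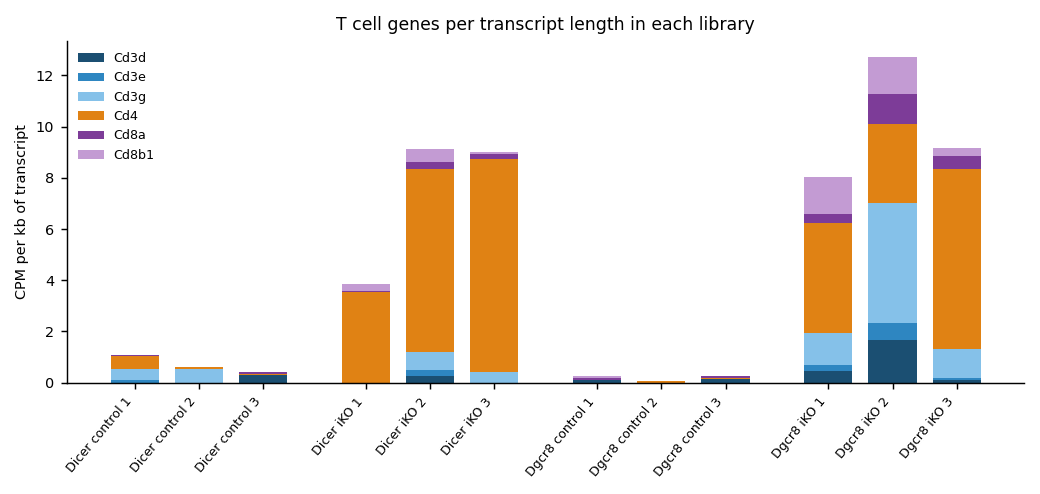
Level per transcript length (CPM per kb, y axis, linear from 0) of the 6 T cell genes, stacked by gene, in each of the 12 libraries of the deletion experiment (x axis). Cd4 (orange) makes up 87.5% of the stack on average in Dicer iKO and 51.5% in Dgcr8 iKO, where replicate 2 carries the largest share of CD3 chains.

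Compared per transcript length, Cd4 was the highest member on average in both mutants. In Dicer iKO it stood at 6.34 ± 2.5 CPM per kb, followed by Cd79b at 2.06 ± 1.56 and Cd3g at 0.363 ± 0.342, while the other 6 lay between 0.0319 and 0.289. In Dgcr8 iKO Cd4 stood at 4.80 ± 2.03 CPM per kb and Cd3g at 2.37 ± 2.03. In replicate 2 alone Cd3g was above Cd4, at 4.71 against 3.08 CPM per kb. There 5.56 of the Cd3g counts lay on Cd3g-202, a retained-intron transcript of 294 bases, which weighs heavily per length. Cd79b, Cd8b1, Cd3d, Cd8a and Cd3e followed at 1.38 ± 1.25, 1.06 ± 0.632, 0.726 ± 0.819, 0.682 ± 0.437 and 0.329 ± 0.299. Each of these neighbours in the order from Cd3g down differed by less than the larger of the 2 SDs. Cd4 made up 87.5% ± 7.79 (SD, n = 3) of the summed per-length level of the 6 T cell genes in Dicer iKO and 51.5% ± 26.3 in Dgcr8 iKO. By library the share was 53.4%, 24.2% and 76.8% in Dgcr8 iKO and 91.7%, 78.5% and 92.4% in Dicer iKO, lowest in replicate 2 of each. The CD3 chains, Cd3g-202 included, made up 55.2% in Dgcr8 iKO replicate 2.

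That library stood apart from the other Dgcr8 iKO libraries in further lymphoid genes, named here after their values were seen. The receptor alpha constant gene Trac had 6, 32 and 6 counts in replicates 1, 2 and 3. Ccr7, the receptor that guides naive lymphocytes to lymph nodes, had 3, 34 and 0, and Ctla4, an inhibitory T cell receptor, 0, 16 and 2. The lymphoid tissue chemokine genes Cxcl13 and Ccl19 had 0, 15 and 0 and 7, 25 and 2, and Glycam1, a product of lymph node vessels, 0, 7 and 0. The lymph node stroma list (Glycam1, Madcam1, Cxcl13, Ccl21a and Ccl19) summed to 4 to 47 counts in Dgcr8 iKO, 0 in every Dgcr8 control library and 4 to 19 in Dicer control, with 2 to 4 of its genes at 0 in each Dgcr8 iKO library. The part of such tissue in the result was not tested beyond leaving the library out. Without it, and with the filter on low counts, the same 3 members were called higher. These were Cd4 at 7.57 (SE 0.50, adjusted p = 9.35e-07, edgeR), Cd3g at 6.41 (SE 1.28, adjusted p = 0.00313) and Cd8a at 3.00 (SE 0.80, adjusted p = 0.0106).

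No B cell member passed the test in either mutant. Cd79a, the alpha chain of the B cell receptor complex, had 1, 5 and 0 counts in Dgcr8 iKO against 2, 0 and 2, and 0, 0 and 1 in Dicer iKO against 1, 1 and 1. Ms4a1 had 1, 8 and 1 counts against 1, 0 and 1, and 3, 1 and 1 against 1, 1 and 2. These values overlapped between mutant and control and lay mostly at or below 3 counts. Cd79b, the beta chain, was the one B cell member above the limit in most control libraries, with 2, 12 and 12 counts in Dgcr8 control and 8, 5 and 5 in Dicer control. It had 7, 9 and 29 counts in Dgcr8 iKO (log2 fold change 0.69, SE 0.69, adjusted p = 0.44, edgeR), a value that turned to -0.28 without replicate 3 of the mutant. In Dicer iKO it had 3, 17 and 29 counts, overlapping with the controls, and was below the filter (1.54 without it, adjusted p = 0.21). When Dicer iKO replicate 1 was left out it passed the filter and was called higher. Its ratio of summed counts was 2.9 in the Dicer comparison (exact 95% interval 1.66 to 5.29) and 1.6 in the Dgcr8 comparison (0.968 to 2.71), for counting error alone.

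Of the 2 members tested for a difference between the Dgcr8 and Dicer effects, Cd4 and Cd79b, none was called. Neither had an unadjusted p under 0.05, and DESeq2 called 0 of them as well. Among all 13552 genes in that test 0.0148% were called, 1 higher and 1 lower. That count rested on single libraries and on the tool, with 320 higher and 81 lower without Dicer control replicate 3, and 170 and 65 by DESeq2.

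A wider T lineage list held 26 genes, of which 24 were matched, and no gene of it or of any other list was called in the test of the difference between the mutants. In Dicer iKO 3 of its genes were tested and all 3 rose, beside 7.37% of all 13045 genes tested called higher. These 3 passed the filter through the mutants, where they were high, so the count says nothing of the list genes not tested. Cd28, a costimulatory receptor, went from 5, 0 and 1 counts to 33, 81 and 95 (log2 fold change 5.16, SE 0.80, adjusted p = 0.00592). Il7r, the interleukin 7 receptor, went from 11, 5 and 1 to 80, 88 and 109 (4.10, SE 0.51, adjusted p = 0.00318). Tcf7, a transcription factor of T cells, rose by 1.71 (SE 0.41, adjusted p = 0.0251), but its adjusted p reached 0.102 when 1 Dicer control library, replicate 2, was left out, and it also missed the threshold without control replicate 1 (0.0586), iKO replicate 2 (0.0999) or iKO replicate 3 (0.0919). The receptor constant gene Trbc1, which is nearly identical to Trbc2 so that reads may be divided between them, had 3, 9 and 7 counts in Dicer iKO against 1, 0 and 1 and fell below the filter.

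In Dgcr8 iKO 6 genes of that list were tested and all 6 rose, beside 13.4% of all 13252 genes tested called higher. Il7r rose by 5.65 (SE 0.43, adjusted p = 4.96e-06), Trbc1 by 5.04 (SE 0.87, adjusted p = 0.000816) and Cd28 by 4.63 (SE 0.41, adjusted p = 1.06e-05). Trbc1 counts were 24, 51 and 11 against 2, 0 and 0. The others, named after their values were seen, were Trbc2, Tcf7 and Bcl11b, at 2.55, 1.96 and 1.90. Without Dgcr8 control replicate 1 Trbc2 (adjusted p = 0.0651) and Bcl11b (0.0802) were lost, and Bcl11b was also lost without control replicate 3 (0.0672) or iKO replicate 2 (0.0965). Summed over the 135 listed variable segments of T cell receptor genes, chosen after the values were seen, the level was 2.47 to 4.46 CPM in Dgcr8 iKO, 0.928 to 2.09 in Dicer iKO, 0 to 0.208 in Dgcr8 control and 0 to 1.58 in Dicer control. The number of its genes called in Dgcr8 iKO was 11 without control replicate 2 and 10 without iKO replicate 3. The genes tested had passed the filter through the mutants, where they were high.

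**Figure D3:**
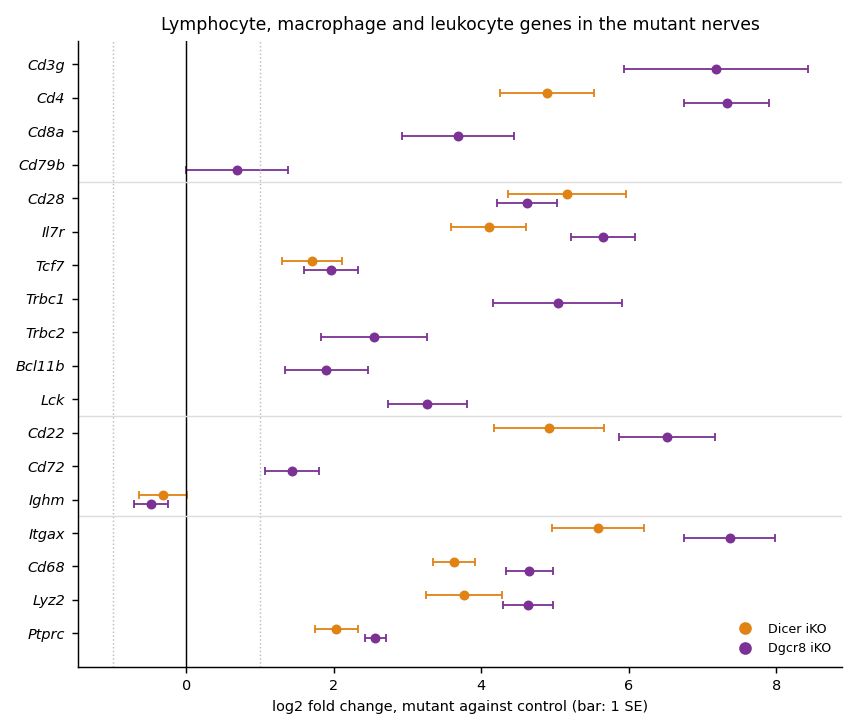
Fitted log2 fold change of mutant against control (x axis, bars 1 SE) for the members that passed the filter, genes of the T and B lineage lists with Lck, and myeloid or general leukocyte genes, in Dicer iKO (orange) and Dgcr8 iKO (purple). Grey lines divide the 4 blocks, dotted lines mark a fold change of 2, and a missing point means that the gene was below the filter. Cd4, Cd28, Il7r, Cd22 and Itgax all lie above 4 in both mutants.

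Genes of antigen receptor signalling rose in both mutants, 11 of 20 tested in Dicer iKO and 13 of 22 in Dgcr8 iKO, with none lower. Without Dicer iKO replicate 2 or 3 the count in Dicer iKO was 7. They included genes shared with myeloid cells. Blnk, the B cell linker, rose by 2.94 in Dicer iKO (SE 0.34, adjusted p = 0.00273) and by 3.18 in Dgcr8 iKO (SE 0.27, adjusted p = 9e-06). Lck, the kinase that CD4 and CD8 carry, was tested in Dgcr8 iKO alone and rose from 4, 2 and 4 counts to 24, 66 and 21 (3.27, SE 0.53, adjusted p = 0.000531). In Dicer iKO Lck had 7, 7 and 9 counts against 0, 0 and 2.

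In the B lineage list of 20 genes 4 were tested in each comparison, of which 1 rose in Dicer iKO and 2 in Dgcr8 iKO (4 without Dgcr8 control replicate 1 or iKO replicate 3, 5 without control replicate 2). Cd22, a B cell lectin that also has a role in microglia, rose by 4.92 in Dicer iKO (SE 0.75, adjusted p = 0.00577) and by 6.51 in Dgcr8 iKO (SE 0.65, adjusted p = 2.37e-05). Its counts were 150, 196 and 288 and 171, 154 and 386 in the mutants and at most 20 in any control. Cd72 rose in Dgcr8 iKO by 1.43 (SE 0.37, adjusted p = 0.00881). Ighm, the heavy chain of immunoglobulin M, did not pass in either (-0.32, adjusted p = 0.52, and -0.48, adjusted p = 0.12). Igkc, the kappa light chain, had 27, 38 and 2 counts in Dgcr8 iKO, 0, 0 and 2 in Dicer iKO and 0 in all 6 controls. The 218 listed immunoglobulin variable segments summed to 1.51 to 3.65 CPM in Dgcr8 iKO and to at most 0.267 CPM in any other library of the experiment. Igkc and the segments were named after their values were seen.

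Macrophage genes rose in the same mutants as Cd4. Of 12 macrophage genes 8 were higher in Dicer iKO and 9 in Dgcr8 iKO, and none was lower. The count in Dicer iKO was 4 without Dicer control replicate 2 and 5 without iKO replicate 2 or 3. Their summed level was 4247 to 7571 CPM in Dicer iKO against 528.6 to 1318 in its controls, and 2814 to 6709 CPM in Dgcr8 iKO against 502.7 to 578.9, with none of the 12 at 0 in any library. Cd68, a lysosomal macrophage marker, rose by 3.63 (SE 0.28, adjusted p = 0.00112) and 4.65 (SE 0.32, adjusted p = 2.64e-06), and Lyz2, lysozyme, by 3.77 and 4.63. Itgax, the CD11c integrin of dendritic cells and activated macrophages, rose by 5.58 (SE 0.63, adjusted p = 0.00271) and 7.37 (SE 0.62, adjusted p = 8.3e-06). Of the dendritic cell genes tested most did not pass, with 2 of 9 higher in Dicer iKO and 4 of 10 in Dgcr8 iKO. The part of myeloid cells in the Cd4 rise was not tested. The 3 genes closest to Cd4 over the 12 libraries, by Pearson's r of log2(CPM + 1), were Adcy7 (0.9964), Tnfrsf1b (0.9961) and Plcg2 (0.9942) of 13377 genes compared. The points share the division into mutant and control, so r describes these libraries and was not tested. Among the genes closest to Cd79b were Aph1c and Abr, with r of 0.8957 and 0.8625.

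Other cell lists moved less evenly. In the NK and cytotoxic list, Klrb1c rose in Dicer iKO, where it was the 1 gene tested (3.99, SE 0.62, adjusted p = 0.00613), from 1, 2 and 0 counts to 19, 13 and 18. Its Dgcr8 control libraries held 24, 53 and 1 counts and Dgcr8 iKO 15, 41 and 32, which overlap. In Dgcr8 iKO Klrk1, an activating receptor of NK and CD8 T cells, rose from 0, 0 and 1 counts to 34, 40 and 21 (6.01, SE 0.70, adjusted p = 6.16e-05), the 1 of 2 tested that was called, a count of 2 to 3 when any library but iKO replicate 2 was left out. Among lymphocyte chemoattractants Cxcl10 rose by 4.17 (SE 0.33, adjusted p = 0.0013) in Dicer iKO and by 3.15 (SE 0.35, adjusted p = 4.82e-05) in Dgcr8 iKO, and Cxcl16 by 2.75 and 3.59, so that 2 of 3 tested were higher in each. Residual blood genes, globins and other red cell genes, fell in Dgcr8 iKO (4 of 4 tested) and did not pass in Dicer iKO (0 of 5). Of the 9 Schwann cell and nerve genes 4 fell in Dgcr8 iKO (2 without iKO replicate 3) and none passed in Dicer iKO (2 without control replicate 1).

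After crush the 9 genes stayed scarce. Of the 4 tested against uncrushed nerve 3 were lower, while neither of the 2 tested against contralateral nerve was called. Contralateral nerve also lay below uncrushed nerve for these 3, by -1.25 for Cd3d, -1.15 for Cd8a and -0.78 for Ms4a1, without a call. Over the 11 libraries of the crush experiment no member exceeded 38 counts or 5.34 CPM. Of 99 member values 80 were above 3 counts, 17 were 1 to 3 and 2 were 0. In the comparison of crushed with uncrushed nerve 4 members passed the filter, of which Cd3d, Cd8a and Ms4a1 were called lower and none higher. Cd3d and Cd8a passed it through the uncrushed libraries, where they were high. Cd3d had 10 to 15 counts there against 6 to 7 in crushed nerve, and Cd8a 15 to 24 against 5 to 14. These calls therefore say nothing of the members not tested. Among all 17433 genes tested 15.3% were called higher and 21.1% lower.

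**Figure D4:**
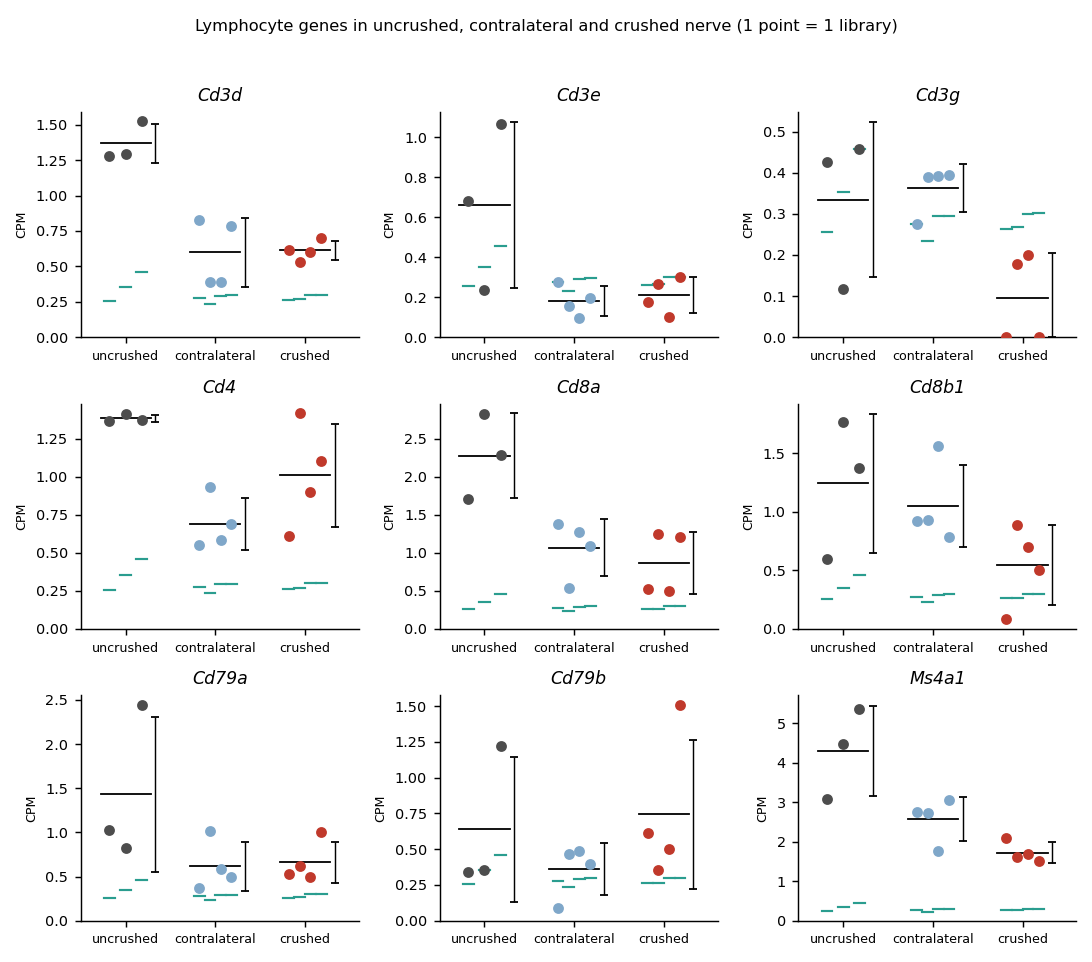
TMM-scaled CPM (y axis, linear, a scale of its own in each panel) of the 9 lymphocyte genes in uncrushed (n = 3), contralateral (n = 4) and crushed (n = 4) nerve (x axis). Points, lines, bars and green dashes stand for libraries, means, 1 SD and the level of 3 counts. Cd3d, Cd8a and Ms4a1 are highest in uncrushed nerve, and the contralateral and crushed libraries overlap for each of them.

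Ms4a1 was the most abundant member, with 36, 38 and 35 counts in uncrushed nerve, 30, 35, 18 and 31 in contralateral nerve and 24, 18, 17 and 15 in crushed nerve. In CPM this was 4.30 ± 1.14 (SD, n = 3), 2.57 ± 0.561 (n = 4) and 1.73 ± 0.261 (n = 4). Crushed and uncrushed libraries did not overlap in CPM, and the log2 fold change was -1.40 (SE 0.26, adjusted p = 0.000547, edgeR). Most of these counts lay on a transcript with a retained intron, Ms4a1-202, which took 77.5% of them in uncrushed, 79.2% in contralateral and 82.8% in crushed nerve. The protein-coding Ms4a1-201 took 12%, 11.9% and 3.18%, or 13.1, 13.6 and 2.33 expected counts per group. When the counts of protein-coding transcripts alone were fitted, an alternative added after seeing the data, Ms4a1 was no longer among the genes tested, and Cd3d, Cd8a and Cd79a were called lower.

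Cd8a had 20, 24 and 15 counts in uncrushed nerve, 15, 7, 13 and 11 in contralateral nerve and 6, 14, 5 and 12 in crushed nerve. Its level was 2.27 ± 0.558 CPM in uncrushed and 0.868 ± 0.412 in crushed nerve, without overlap (log2 fold change -1.48, SE 0.39, adjusted p = 0.00541, edgeR). Cd3d had 15, 11 and 10 counts against 7, 6, 6 and 7 in crushed nerve, or 1.37 ± 0.138 against 0.612 ± 0.0695 CPM (-1.25, SE 0.34, adjusted p = 0.00612). Without the filter on counts, where 10.8% of 36681 genes were called lower, Ms4a1 and Cd8a were still called and Cd3d was not (-1.03, adjusted p = 0.0783). Cd4 had 16, 12 and 9 counts against 7, 16, 9 and 11 and did not pass (-0.57, SE 0.35, adjusted p = 0.17).

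The other 5 members were below the filter. Cd3e had 8, 2 and 7 counts in uncrushed and 2, 3, 1 and 3 in crushed nerve, and Cd3g 5, 1 and 3 against 0, 2, 2 and 0. Cd8b1 had 7, 15 and 9 against 1, 10, 7 and 5. Of the B cell genes, Cd79a had 12, 7 and 16 against 6, 7, 5 and 10, and Cd79b, the 1 member with a positive difference, had 4, 3 and 8 against 7, 4, 5 and 15. Every one of these pairs overlapped in counts. The exact 95% interval of the ratio of summed counts, crushed over uncrushed, was 0.13 to 0.788 for Cd3e and 0.679 to 2.58 for Cd79b, for counting error alone.

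In contralateral nerve Cd3d had 9, 5, 4 and 8 counts, Cd3e 3, 2, 1 and 2, and Cd3g 3, 5, 4 and 4. Cd3d and Cd3e overlapped there with crushed nerve, while every contralateral Cd3g count was above the 0 to 2 of crushed nerve. Cd4 had 6, 12, 6 and 7 counts, or 0.690 ± 0.172 CPM, below the 1.38 ± 0.0241 of uncrushed nerve and overlapping with the 1.01 ± 0.342 of crushed nerve. Cd8b1 had 10, 12, 16 and 8 counts. Of the B cell genes, Cd79a had 4, 13, 6 and 5 and Cd79b 1, 6, 5 and 4. Each of the last 3 overlapped with both other groups.

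In crushed against contralateral nerve none of the members was called. Of the 9, 2 passed the filter, and 14.6% of all 16667 genes tested were called higher and 13.6% lower. Ms4a1 differed by -0.71 (SE 0.24, adjusted p = 0.0183, edgeR), which is less than a fold change of 2, and Cd8a by -0.41 (SE 0.40, adjusted p = 0.38). One of the 2 had an unadjusted p under 0.05, and DESeq2 called 0. Contralateral against uncrushed nerve had 5 members tested and 0 called, 4 of them at an unadjusted p under 0.05, and DESeq2 called 0 as well. Over all 17722 genes 0% were called higher and 0% lower, while 3165 had an unadjusted p under 0.05. For the members the log2 differences were -1.25 for Cd3d, -1.15 for Cd8a, -1.05 for Cd4, -0.78 for Ms4a1 and -0.27 for Cd8b1, with adjusted p from 0.17 to 0.77. These 3 comparisons share libraries.

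**Figure D5:**
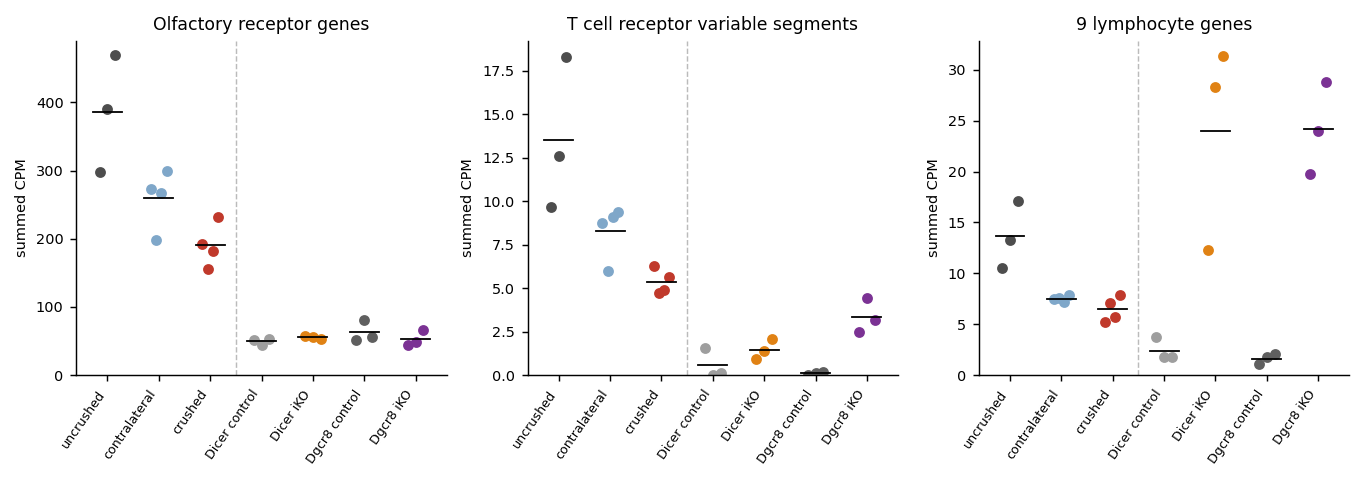
Summed TMM-scaled CPM (y axes, linear from 0) of the olfactory receptor genes, the T cell receptor variable segments and the 9 lymphocyte genes in each of the 23 libraries, by group (x axis). Points are libraries, lines are means, and the dashed line parts the 2 experiments, which were scaled separately. All 3 sums are highest in uncrushed and lowest in crushed nerve on average, and the olfactory sum lies at 44.2 to 81.4 CPM in the 4 groups of the deletion experiment.

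Olfactory receptor genes, which are silent in most tissues outside the nose, were taken after seeing the data as a gauge of the lowest counts. In the crush experiment 1018 such genes summed to 297.8 to 469 CPM in uncrushed, 197.7 to 298.9 in contralateral and 155.5 to 231.8 in crushed nerve. That is 1.72 to 3.42 counts per gene and library. Of the 1018 genes 11 passed the filter in crushed against uncrushed nerve. Of these 7 were called lower and none higher, beside 21.1% of all genes tested called lower. Their median was -1.14, beside -1.40 for Ms4a1, -1.48 for Cd8a and -1.25 for Cd3d. Genes this low can pass the filter through the group where they are high, so this says nothing of the other olfactory receptor genes. The 169 T cell receptor variable segments fell in the same order, from 13.5 ± 4.41 through 8.29 ± 1.56 to 5.38 ± 0.726 CPM, although the receptor constant gene Trac had 0 to 2 counts in every crush library. The part of this low-level signal in the fall of the members was not tested.

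Per length every member was above most olfactory receptor genes in the 3 groups of the crush experiment, where 0.393% to 32.8% of the latter reached a member's level. In crushed nerve 0.688% of the 1018 genes reached the level of Ms4a1 (0.647 CPM per kb), 4.52% that of Cd8a, 1.38% that of Cd3d and 18.8% that of Cd3e (0.147 CPM per kb). In the deletion experiment 1017 olfactory receptor genes summed to 44.2 to 81.4 CPM, with overlapping ranges in the 4 groups. There 1 of them (0.0983%) reached the level of Cd4 in either mutant, while Cd8b1 in Dicer control and Cd3e and Cd3g in Dgcr8 control were at 0. The 3 genes closest to Ms4a1 over the 11 crush libraries were AB041806, Gm37446 and Lrriq1 (r of 0.9703, 0.9572 and 0.9567), and to Cd8a they were Gm28262, Gm10143 and Cacnb2 (0.9479, 0.9289 and 0.927). None of these 6 is on any of the fixed lists.

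Per transcript length, the order of the members in crushed nerve ran from Ms4a1 at 0.647 ± 0.0938 CPM per kb and Cd79b at 0.583 ± 0.359 to Cd3g at 0.154 ± 0.187 and Cd3e at 0.147 ± 0.0634. Cd3d, Cd79a and Cd4 lay at 0.486 ± 0.06, 0.455 ± 0.16 and 0.448 ± 0.206, which did not differ beyond their SD. In uncrushed nerve Ms4a1 led at 1.61 ± 0.407, followed by Cd3d at 1.03 ± 0.0972 and Cd79a at 0.982 ± 0.605. Cd4 made up 22.7% ± 5.05 of the summed T cell members in crushed nerve, against 15.1% ± 4.17 in uncrushed nerve.

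The wider lists divided after crush. Of 8 T lineage genes tested against uncrushed nerve 2 rose and 4 fell, with 2 called in all without crushed replicate 2 and 3 without crushed replicate 3. Il7r rose from 3, 7 and 3 counts to 10, 83, 33 and 26 (2.69, SE 0.71, adjusted p = 0.00515), but fell below the filter and was not tested when crushed replicate 2, 3 or 4 was left out. Cd247, the zeta chain that completes the receptor complex, fell by 1.56 (SE 0.35, adjusted p = 0.00195), and Bcl11b fell by 1.47 (SE 0.46, adjusted p = 0.0136), a call lost without uncrushed replicate 2 (adjusted p = 0.0656). Against contralateral nerve 1 of 5 rose, Tcf7 (1.32, SE 0.23, adjusted p = 0.000157), and none fell, and 2 were called without any one contralateral library or without crushed replicate 1. In the B lineage list 1 of 7 rose and 2 fell against uncrushed nerve. Bank1, an adaptor of B cell signalling, rose by 1.29 (SE 0.25, adjusted p = 0.000661). Cxcr5, a homing receptor, fell by 1.61 (SE 0.66, adjusted p = 0.0465) and Pax5, the B cell commitment factor, by 1.23 (SE 0.34, adjusted p = 0.00647). Without uncrushed replicate 3 neither was called (adjusted p = 0.0833 for Cxcr5, and -0.92 for Pax5, short of a fold change of 2), and Cxcr5 was also lost without uncrushed replicate 1 or crushed replicate 1, 2 or 3 (adjusted p = 0.0914 to 0.278). Against contralateral nerve Cd22 and Cd72 rose, by 1.41 (SE 0.38, adjusted p = 0.00452) and 1.35 (SE 0.33, adjusted p = 0.00219), and none of the 5 tested fell.

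General and myeloid leukocyte genes rose in the same libraries. Ptprc, the common leukocyte antigen CD45, rose by 3.21 against uncrushed nerve (SE 0.17, adjusted p = 9.59e-09), and 12 of 21 genes of antigen receptor signalling rose with it while 2 fell. Of 12 macrophage genes 11 rose against either control nerve, their sum going from 225.5 to 246.7 CPM in uncrushed to 997.9 to 2160 CPM in crushed nerve, with none at 0. Itgam, the macrophage integrin CD11b, rose by 4.62 (SE 0.21, adjusted p = 2.57e-09). Gzmb, a granule protease of cytotoxic cells, rose by 4.96 (SE 0.41, adjusted p = 6.08e-07) and was the 1 gene of 3 tested in its list to do so (2 without uncrushed replicate 1 or crushed replicate 1, and 3 without uncrushed replicate 3). Against contralateral nerve all 3 genes tested in that list rose, Gzmb by 4.69 (SE 0.33, adjusted p = 1.38e-08), Klrd1 by 1.67 (SE 0.35, adjusted p = 0.000796) and Klrk1 by 1.04 (SE 0.25, adjusted p = 0.00217). With each library left out in turn that count ranged from 2 to 3. Residual blood genes fell, 4 of 4 tested, as did 7 of 9 Schwann cell and nerve genes. The lymph node stroma list held 10 to 16 counts in each crushed library, with 1 to 2 of its 5 matched genes at 0.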

How the data were processed

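Total RNA of mouse sciatic nerve was sequenced. Per the labels, the crush libraries were made with a Clontech SMARTer stranded kit for low input and the deletion libraries with a TruSeq stranded kit after Ribo-Zero depletion. The study's methods name the second kit for the sequencing as a whole. The submitters' processing notes name Trimmomatic, RSEM and GRCm38, and the study's methods add alignment with STAR. For each library and Ensembl transcript the authors deposited the expected count and the TPM that RSEM gave. The strand setting is not given in the sources used here. Replicates are separate mice per the study's methods. In the crush libraries 1 transcript took 61.5% to 71.8% of the deposited TPM (2.38% to 9.44% in the deletion libraries), so levels here rest on counts.

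The transcripts of a gene were added up and each sum was rounded to a whole count. Gene identifiers were matched to symbols with GENCODE M21 (42365 of 43068 and 22570 of 22880). Genes passed edgeR's filterByExpr with a minimum count of 10 and were tested with TMM scaling and the quasi-likelihood test of edgeR 4.0.16 in R 4.3.3, in the 2 groups compared, or in all 12 deletion libraries for the difference between effects. P-values were adjusted by Benjamini-Hochberg over all genes tested. A call needed a fold change of at least 2 and an adjusted p of at most 0.05 (adjusted p alone for the difference). The SE was obtained from each log2 fold change and its F statistic. Level per length is the count of each transcript divided by its length, summed and scaled by TMM. The scripts were tested on simulated data.

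Members and lists were chosen with earlier results of these data known. Named genes were all members, from each list and comparison up to 3 called genes with the largest change and 2 tested genes not called with the highest CPM, and the 3 genes nearest to each member with a mean of at least 1 CPM, except where a choice after seeing values is stated. Trgc1, Trgc2 and Fdcsp were not matched in either experiment nor Cxcl11 in the deletion experiment. The replicate label and the description of the third uncrushed library disagree and the label in its title was used. No 2 libraries of a group were copies (chi-square per degree of freedom of 3.86 or more over 27 pairs). Alternatives were RLE scaling, other filters, DESeq2 1.42.0, the replicate number as a block, all groups in one fit, no fold limit, TPM, and each replicate left out. Some named genes are not reported here.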

Additional observations from a re-analysis of the deposited data

Results flagged for a closer look

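Among the 9 members in the contralateral and crushed groups of 4 libraries, 1 library lay apart by Dixon's ratio. Cd3g in contralateral nerve was 0.276 CPM in the lowest library against 0.389 to 0.394 in the other 3, or 3 counts against 4 to 5, a gap that whole counts at this depth can give. Chance marks about 1 in 20 groups, and 18 were examined. The cause was not tested.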

How the results depend on the processing

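Of 235 refits of the tested members' log2 fold changes, 232 kept their direction and their side of the threshold. Refits in which a member was no longer tested are not among the 235, so calls lost in that way are not counted. Cd3d in crushed against uncrushed nerve lost its call without the filter (-1.03). Cd8b1 in contralateral against uncrushed nerve (-0.27) ranged from -0.65 to 0.10 with 1 replicate left out, its sign changing without uncrushed replicate 2. Cd79b in Dgcr8 iKO (0.69) ranged from -0.28, without replicate 3 of the mutant, to 1.11. The number of members called in crushed against uncrushed nerve, 3, became 1 with at least 10 counts in every library and 5 with all groups in one fit. The stricter filter left 1 member tested there and none in either mutant, so that 0 were called in Dicer iKO and 0 in Dgcr8 iKO. In Dgcr8 iKO 3 calls became 6 without the filter and 1 with all groups in one fit, where 2 members were tested. Against contralateral nerve 0 became 1 without the fold limit. With each replicate left out in turn the count ranged from 3 to 5 in crushed against uncrushed nerve, from 1 to 2 in Dicer iKO (5 without uncrushed replicate 1, 2 without Dicer iKO replicate 1), and from 3 to 4 in Dgcr8 iKO, and stayed at 0 elsewhere. The number of list genes called moved by more than 1.5 times in 69 of 649 recounts.

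Replicate numbers did not pair the libraries: deviations of same-numbered libraries correlated at -0.174 to 0.177 and not every pair exceeded 0.1. With the replicate block the members called were 3, 0, 0, 1, 3 and 0 in the order of the comparisons, as without it, and it changed no member's call. Of the other named genes it ended the call of Tcf7 in Dicer iKO (1.73, adjusted p = 0.0693, edgeR), and in Dicer iKO it left 4 macrophage and 6 antigen receptor signalling genes called. All genes called higher in Dicer iKO numbered 961, 548 with the block and 515 to 1093 with a replicate left out. The share of Cd4 among T cell members moved by less than 1 SD in TPM. At these depths 3 counts limit what can be read from most members.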
